A study of Mus musculus with 12 samples.

Results

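Mouse spleen T cells that had spent 48 h beside Res cells carrying a short hairpin RNA against Fabp7 (shFabp7) were compared with T cells that had spent 24 h beside the same partner, across all genes expressed in them. The libraries were chosen by their labels alone. Those with the shFabp7 partner were taken, 3 at 24 h and 3 at 48 h, which makes 6 of the 12 libraries of the series. The other 6 libraries are T cells kept for 24 h or 48 h with Res cells carrying a control construct, again 3 at each time. In all 4 groups the cells were grown at 37 °C and 5% CO2 in RPMI-1640 with 10% serum and antibiotics, and the RNA was extracted with TRIzol. The study asked which T cell genes differ between co-cultures with the control and the shFabp7 partner. The hairpin sits in the partner cell and not in the T cell, and the labels do not describe what Res cells are, how the T cells were purified or whether they were stimulated. The series has no T cells sampled before co-culture, so 24 h is the earliest point of every change given here.

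A T cell that is activated first grows and then divides. Growth depends on making ribosomes in the nucleolus, and division on genes for DNA replication and mitosis that are switched on in waves. Activated T cells also raise glucose uptake and glycolysis, secrete cytokines such as interleukin 2 and interferon gamma, and, in the cytotoxic lineage, fill granules with perforin and granzymes. Fabp7 belongs to the fatty acid binding proteins, small carriers of lipids in the cytoplasm. Ferroptosis, named in the title of the series, is a form of cell death driven by peroxidation of membrane lipids, which the enzyme Gpx4 counters.

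Total counts averaged 33.9 ± 1.97 M in the 24 h group and 36.8 ± 3.37 M in the 48 h group (SD, n = 3 each), within a range of 32.0 to 40.6 M over the 12 libraries. Levels are given in CPM, the counts of a gene per M counts of its library after TMM scaling. A count of 0 allows up to 3 counts, which is 0.0738 to 0.0939 CPM before TMM scaling and covers counting error only. Multidimensional scaling places libraries by their distances from each other. For the 12 libraries it set the times apart on its leading axis and the partners on the next. These axes accounted for 70.0% and 4.73% of the spread in those distances. The percentages are not shares of the variance over all tested genes. The labels do not say whether the 3 libraries of a group are separate cultures or repeats of one, so every p-value measures the spread between these libraries, which may be technical. Nor do they say whether the 24 h and 48 h libraries were prepared together, so time and a preparation set cannot be told apart. Fabp7 itself had 0 counts in all 6 libraries.

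The libraries carried the genes that define T cells. Cd3e, a chain of the T cell receptor complex, stood at 412, 402 and 419 CPM at 24 h and at 260, 265 and 272 CPM at 48 h. The T cell surface gene Thy1 stood at 458, 423 and 438 CPM at 24 h and at 797, 797 and 798 CPM at 48 h. These 2 genes moved in opposite directions without overlap of the groups, by a log2 fold change of -0.63 ± 0.05 (SE, adjusted p = 2.88e-13) for Cd3e and 0.86 ± 0.05 (adjusted p = 1.43e-16) for Thy1. Adjusted p-values here and below come from edgeR's quasi-likelihood test with Benjamini-Hochberg adjustment over 16945 genes. Of the other receptor chains, Cd3d fell by 0.36 ± 0.05 on the log2 scale and Cd247 fell by 0.49 ± 0.05. Cd2 was listed with -0.08 ± 0.05 (adjusted p = 0.173), and its groups overlapped.

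Between 24 and 48 h most expressed genes changed. Of 16945 genes, 11207 passed an adjusted p of 0.05, or 66.1%: 6085 were higher at 48 h (35.9%) and 5122 lower (30.2%). Large changes were mostly rises: a change of at least 2-fold was a rise for 3067 genes and a fall for 735 (22.4% in all). At 4-fold the numbers were 1393 and 74, and at 8-fold they were 619 and 9. The typical change was small, with a median of 1.59-fold among the genes that passed. In 12105 genes (71.4%) the 3 libraries of one time did not overlap the 3 of the other. Scaled to library totals, without TMM factors, 7483 genes were higher and 3789 lower, and the median over all genes moved from 0.06 to 0.21 on the log2 scale.

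The direction went with the level of a gene. Among 4190 genes with a mean under 1 CPM, 33.2% rose and 6.63% fell. Among 6441 genes between 10 and 100 CPM, 35.8% rose and 40.8% fell. Among 2579 genes above 100 CPM, 22.8% rose and 58.3% fell, with a median log2 fold change of -0.21. Among 13264 genes that reached 1 CPM in at least 1 of the times, 343 rose and 3 fell by at least 8-fold. A gene that rose can meet that limit through its 48 h libraries alone and still lie near the floor at 24 h.

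**Figure D1:**
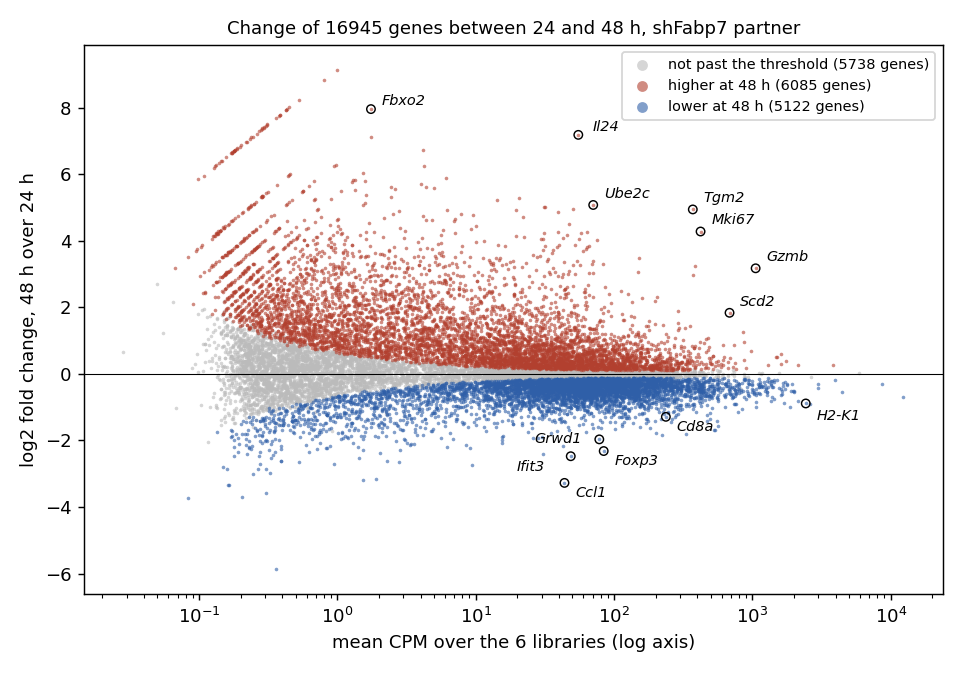
Each point is one of the 16945 tested genes, with its mean level over the 6 libraries in CPM on a log axis and its log2 fold change (48 h over 24 h) on the vertical axis; red points were higher and blue points lower at 48 h at an adjusted p of 0.05, and grey points did not pass. The 6085 rises spread to large values at low and middle levels, while the most abundant genes lie mostly among the 5122 falls.

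Gene lists for cell cycle, growth, metabolism, T cell function and other cell types were then read against that background. The counts of a list are over its members that passed the filter on low counts. The median over all genes set beside them is not matched for level, and above 100 CPM 58.3% of genes fell (median -0.21). By their medians, genes for mitosis rose the most, and interferon-induced GTPases and genes for ribosome assembly fell the most. Replication histones had the next highest median, but some of their tested members could pass the filter through the 48 h libraries alone. Their place in this order is therefore a description only.

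**Figure D2:**
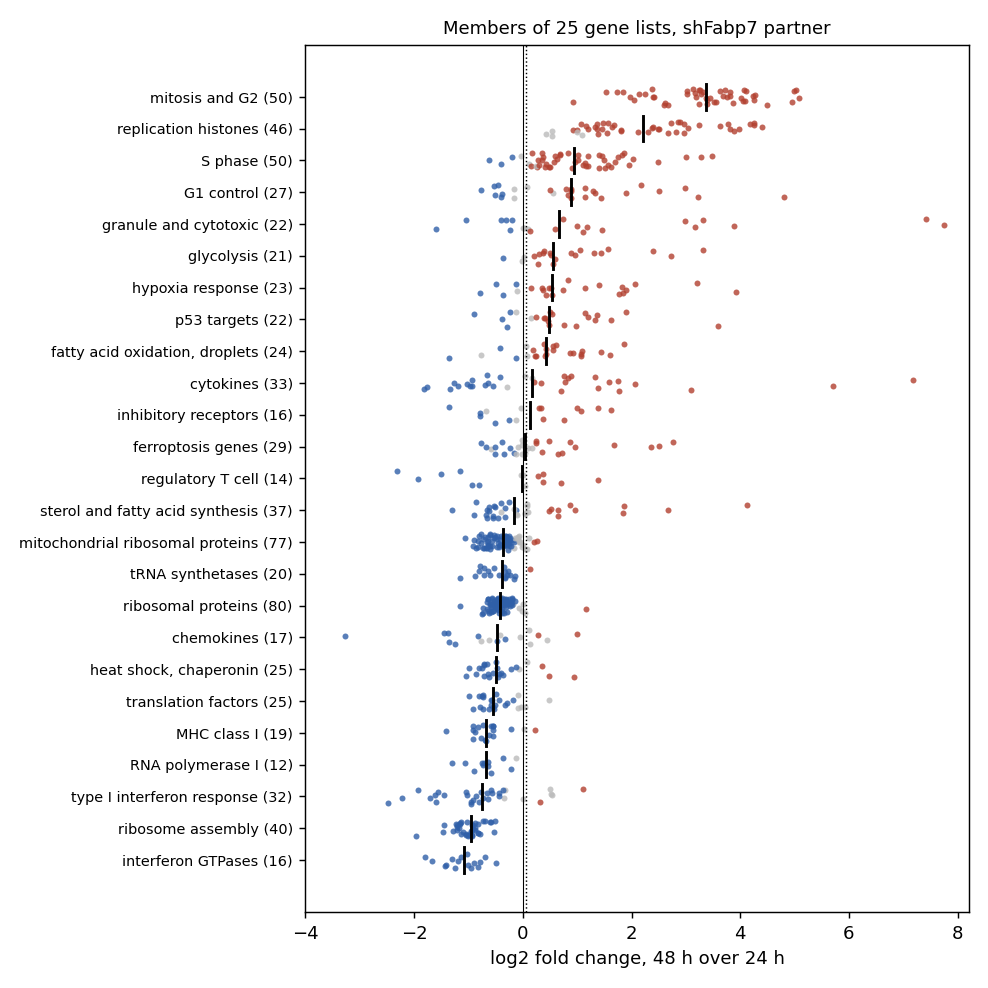
Each point is a tested member of one of 25 gene lists (number of tested members in brackets), placed by its log2 fold change from 24 to 48 h with the shFabp7 partner; red members rose and blue members fell at an adjusted p of 0.05, grey members did not pass, the thick bar is the list's median, the solid line is 0 and the dotted line is the median over all genes, 0.06. Mitosis genes lie highest, with a median of 3.38, and interferon GTPases lowest, with a median of -1.09.

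All 50 genes of the mitosis and G2 list rose, 49 of them by at least 2-fold, with a median log2 fold change of 3.38 beside 0.06 over all genes. Mki67, whose protein coats mitotic chromosomes and marks cycling cells, stood at 45.3, 42.6 and 36.6 CPM at 24 h and at 846, 803 and 760 CPM at 48 h. Every 48 h library lay far above every 24 h library, and the log2 fold change was 4.28 ± 0.07 (adjusted p = 3.76e-29). Ube2c, the ubiquitin-conjugating enzyme that works with the anaphase-promoting complex, went from 5.03, 4.12 and 3.13 CPM to 136, 141 and 135 CPM, the widest change of the list (5.07 ± 0.09, adjusted p = 1.29e-27). Ccnb2, which encodes cyclin B2, went from 2.11, 1.81 and 1.62 CPM to 61.4, 61.2 and 57.7 CPM (5.02 ± 0.11). Both genes were low in each 24 h library and at least 57.7 CPM in each 48 h library. The spindle gene Nusap1 (5.00 ± 0.13), Hmmr (4.95 ± 0.10), the kinetochore gene Cenpf (4.50 ± 0.09), Ccnb1 for cyclin B1 (4.24 ± 0.08) and the mitotic kinase gene Cdk1 (3.39 ± 0.08) rose as well.

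The DNA replication list had a lower median than the mitosis list. Of its 50 genes 44 rose and 3 fell, with a median of 0.94. Rrm2, the regulated subunit of ribonucleotide reductase, which makes deoxynucleotides, stood at 27.2, 24.0 and 23.7 CPM at 24 h and at 281, 284 and 275 CPM at 48 h, and its log2 fold change was 3.49 ± 0.06 (adjusted p = 2.6e-30). The groups were far apart. Tk1 for thymidine kinase (3.28 ± 0.07), the activator gene E2f2 (2.99 ± 0.07) and the cyclin E genes Ccne2 (2.50 ± 0.16) and Ccne1 (2.02 ± 0.06) rose too. The replicative helicase gene Mcm6 stood at 329, 304 and 295 CPM at 24 h and at 410, 409 and 415 CPM at 48 h, a small rise (0.41 ± 0.05).

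Of 64 replication-dependent histone genes, 46 passed the filter on low counts, and 41 of those rose and 0 fell. Their summed share of all counts was 0.00266% at 24 h and 0.0127% at 48 h, which is low at both times. A histone gene near the filter could pass it only through the 48 h libraries, so the count describes these genes and does not bear on their direction. Near-identical histone copies can share reads. Among 27 genes of G1 control, 17 rose and 6 fell (median 0.88). The phosphatase gene Cdkn3 (4.81 ± 0.27), the E2F repressor genes E2f8 (3.21 ± 0.11) and E2f7 (2.98 ± 0.14), Mybl2, which encodes B-Myb (2.51 ± 0.09), and the inhibitor gene Cdkn2c (2.18 ± 0.12) led the rises.

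Genes that peak in G2 and mitosis often carry CCAAT boxes and a CHR element near their start, and replication genes often carry E2F sites. Windows from 250 bases before to 50 bases after the start, from RefSeq on build GRCm38.p6, were searched for these letters on both strands. A gene with several windows counted if any of them matched. A CHR (TTTGAA or TTCGAA) was present in 33 of the 42 mitosis genes with a window (78.6%). The share was 17.04% of the 11315 tested genes with a window and 21.7% of all 27025 genes with one. CCAAT was present in 32 of the 42 (76.2%), against 42.8% and 41.1%. The E2F letters TTTNNCGC were present in 17 of 39 replication genes (43.6%), against 9.47% and 5.93%. CHR and CCAAT matches can share end letters, and matches of 1 motif on the 2 strands can overlap. A match is a description of the window and not evidence of a bound site. The windows of Rrm2, Tk1 and Ccne1, whose rises are given above, held 0 E2F matches. Of the mitosis genes named above, Nusap1 had a window with 0 CHR and 0 CCAAT matches. That of Ccnb1 held 0 CHR and 2 CCAAT matches. The windows of Ube2c and Ccnb2, the mitosis genes with the widest rises, and of Mcm6 and Cdc6, 2 replication genes with E2F letters, are printed below. In the first 2 the capitals mark CHR and CCAAT letters on either strand, and in the last 2 the E2F letters. Ube2c (chr2:164769679-164769978, plus strand) holds 1 CHR and 6 CCAAT matches, Ccnb2 (chr9:70421505-70421804, minus strand) 2 and 3, Mcm6 (chr1:128359656-128359955, minus strand) 3 E2F matches and Cdc6 (chr11:98907901-98908200, plus strand) 1.
Ube2c: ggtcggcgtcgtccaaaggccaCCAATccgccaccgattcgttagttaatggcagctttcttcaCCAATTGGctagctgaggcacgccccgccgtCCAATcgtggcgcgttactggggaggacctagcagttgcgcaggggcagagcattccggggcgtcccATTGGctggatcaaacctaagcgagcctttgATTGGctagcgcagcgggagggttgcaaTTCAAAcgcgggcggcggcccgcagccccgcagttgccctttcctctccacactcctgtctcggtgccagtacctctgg
Ccnb2: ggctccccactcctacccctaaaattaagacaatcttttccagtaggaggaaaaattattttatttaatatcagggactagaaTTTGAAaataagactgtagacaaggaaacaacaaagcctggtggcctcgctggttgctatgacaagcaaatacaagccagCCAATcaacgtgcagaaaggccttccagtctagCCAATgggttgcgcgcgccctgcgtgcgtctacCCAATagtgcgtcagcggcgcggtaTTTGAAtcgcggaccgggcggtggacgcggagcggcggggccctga
Mcm6: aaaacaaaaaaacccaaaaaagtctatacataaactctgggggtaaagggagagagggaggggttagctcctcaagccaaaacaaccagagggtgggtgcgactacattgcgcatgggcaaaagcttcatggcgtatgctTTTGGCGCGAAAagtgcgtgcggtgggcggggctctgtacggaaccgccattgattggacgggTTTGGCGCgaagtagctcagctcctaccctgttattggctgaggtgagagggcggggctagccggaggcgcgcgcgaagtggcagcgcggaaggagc
Cdc6: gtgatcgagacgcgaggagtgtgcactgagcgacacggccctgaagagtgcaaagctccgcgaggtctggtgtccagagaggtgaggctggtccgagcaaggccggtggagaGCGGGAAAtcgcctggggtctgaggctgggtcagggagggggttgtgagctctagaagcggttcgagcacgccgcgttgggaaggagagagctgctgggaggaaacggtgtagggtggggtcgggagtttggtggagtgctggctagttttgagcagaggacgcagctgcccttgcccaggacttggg

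Genes for making ribosomes fell together. Of 40 genes for ribosome assembly, which process and package ribosomal RNA in the nucleolus, 0 rose and 40 fell, 19 of them by at least 2-fold, with a median of -0.96. Grwd1, a WD-repeat protein of ribosome assembly, stood at 129, 121 and 125 CPM at 24 h and at 32.2, 30.4 and 33.1 CPM at 48 h. Its 2 groups were well apart, and it fell by 1.97 ± 0.06 on the log2 scale (adjusted p = 1.57e-23), the widest fall of the list. Ppan (-1.46 ± 0.06), Rrs1 (-1.44 ± 0.06), Rrp9 (-1.28 ± 0.06) and Bysl (-1.24 ± 0.07) followed. The abundant nucleolar genes Npm1 and Ncl, for nucleophosmin and nucleolin, fell by 0.88 ± 0.07 and 0.83 ± 0.05. Of 12 genes for RNA polymerase I, which transcribes ribosomal RNA, 0 rose and 11 fell (median -0.68), among them the subunit gene Polr1b (-1.31 ± 0.07) and the initiation factor gene Ubtf (-1.07 ± 0.05). Of 70 tested small nucleolar RNAs, a class looked up after values were seen, 31 fell (44.3%) and 1 rose (1.43%). Over all tested genes these shares were 30.2% and 35.9%. The other small nucleolar RNAs did not pass.

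The E-box letters CACGTG, which Myc and related factors can bind, were present in 10 of 35 ribosome assembly genes with a RefSeq window (28.6%). The share was 11.3% of tested genes with a window and 8.09% of all genes with one. The letters read the same on both strands. The windows of Ppan, Rrp9 and Bysl, also among the widest falls, held 0 E-boxes. The window of Grwd1 (chr7:45830740-45831039, minus strand, GRCm38.p6) is printed because the gene fell the most in the list, and the capitals mark its 1 E-box.
Grwd1: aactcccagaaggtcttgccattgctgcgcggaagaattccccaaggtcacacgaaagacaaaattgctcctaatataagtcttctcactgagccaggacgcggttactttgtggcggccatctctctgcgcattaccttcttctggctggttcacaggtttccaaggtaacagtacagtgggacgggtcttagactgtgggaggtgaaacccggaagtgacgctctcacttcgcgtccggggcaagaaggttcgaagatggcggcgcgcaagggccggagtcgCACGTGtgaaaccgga

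The protein synthesis machinery beyond the nucleolus was lower as well. Of 83 cytoplasmic ribosomal protein genes 80 were tested, 1 rose and 73 fell, with a median of -0.42. Together they took 8.23 ± 0.345% of all counts at 24 h and 6.83 ± 0.086% at 48 h (SD, n = 3), with no overlap between the times (two-sided exact permutation p = 0.1, the smallest that 3 against 3 can give). Rps27 (-0.73 ± 0.06) and Rpl38 (-0.72 ± 0.06) were among the widest falls. Of 77 mitochondrial ribosomal protein genes 2 rose and 62 fell (median -0.37). Under other scalings 46 to 69 of them fell (median -0.44 to -0.22), and 63 to 74 of the cytoplasmic ones (median -0.50 to -0.27). Among 25 translation factor genes 0 rose and 20 fell (median -0.55), and among 20 tRNA synthetase genes 1 rose and 19 fell (median -0.39). The helicase gene Eif4a1, part of the cap-binding complex, went from 1393, 1471 and 1399 CPM to 705, 722 and 720 CPM, with every 48 h library below every 24 h library (-0.99 ± 0.06, adjusted p = 5.52e-17). Of 25 heat shock and chaperonin genes 3 rose and 20 fell (median -0.49). The chaperone gene Hspa8 went from 2514, 2487 and 2487 CPM to 1225, 1270 and 1278 CPM (-0.99 ± 0.05). Myc, the transcription factor gene that drives growth after activation, went from 682, 636 and 669 CPM to 456, 469 and 482 CPM (-0.50 ± 0.06, adjusted p = 2.36e-09), and Srm, for spermidine synthase, fell by 1.03 ± 0.07.

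Glucose metabolism went the other way. Of 21 genes for glucose uptake and glycolysis 18 rose and 1 fell (median 0.55). Slc16a3, the transporter that exports lactate, stood at 13.4, 11.6 and 13.2 CPM at 24 h and at 121, 126 and 132 CPM at 48 h. The times were far apart, with a log2 fold change of 3.31 ± 0.08 (adjusted p = 7.72e-25). The glucose transporter gene Slc2a3 (2.39 ± 0.05), the aldolase gene Aldoc (2.73 ± 0.15), Pfkm for phosphofructokinase (1.57 ± 0.07) and Hk2 for hexokinase 2 (1.44 ± 0.06) rose. Of 23 genes induced in low oxygen, a list that holds genes of glucose use too, 18 rose and 4 fell (median 0.54). P4ha2 (3.93 ± 0.17), which hydroxylates collagen, Bnip3 (2.06 ± 0.08), Epas1, the gene of HIF-2 alpha (1.90 ± 0.10), and the oxygen sensor gene Egln3 (1.84 ± 0.06) led. The labels give no oxygen level for the cultures.

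Genes of lipid use mostly rose, and genes of lipid synthesis were divided. Of 24 genes for fatty acid oxidation and lipid droplets 18 rose and 3 fell (median 0.42). Cpt1a, which admits fatty acids to mitochondria, stood at 25.2, 26.4 and 24.2 CPM at 24 h and at 65.6, 69.0 and 71.5 CPM at 48 h (1.45 ± 0.06, adjusted p = 2.09e-20). The mitochondrial dehydrogenase gene Acadl (1.86 ± 0.08) and the droplet coat gene Plin2 (1.6 ± 0.08) rose, and Dgat2, which makes triglycerides, fell by 1.36 ± 0.15. Of 37 genes for sterol and fatty acid synthesis 10 rose and 18 fell (median -0.17). Scd1, a desaturase that makes monounsaturated fatty acids, went from 2.34, 2.05 and 1.95 CPM to 43.0, 33.2 and 34.5 CPM (4.13 ± 0.12, adjusted p = 1.05e-24). Its paralog Scd2 was higher at both times, at 310, 284 and 305 CPM and then at 1113, 1033 and 1059 CPM (1.83 ± 0.05). Neither desaturase overlapped between the times. The cholesterol exporter gene Abca1 rose (2.66 ± 0.09).

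Of 22 genes for fatty acid binding and uptake 14 were tested, 8 rose and 3 fell (median 0.47). Among the Fabp genes only Fabp3 and Fabp5 were tested in these T cells. Fabp5 stood at 54.8, 59.1 and 49.9 CPM at 24 h and at 55.9, 57.8 and 57.6 CPM at 48 h. The times overlapped, and its log2 fold change was 0.07 ± 0.09 (adjusted p = 0.522). Fabp3 had 0, 4 and 0 counts at 24 h and 17, 7 and 10 counts at 48 h (2.70 ± 0.83, adjusted p = 0.00515). Acsl6, which activates fatty acids, rose (2.95 ± 0.18), as did Cd36, a fatty acid receptor that reached no more than 1.36 CPM (3.43 ± 0.46).

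Of 31 genes of ferroptosis control 29 were tested, 12 rose and 8 fell (median 0.04, a sign that turns with the scaling of the libraries). Gpx4, the enzyme that reduces lipid peroxides, stood at 81.1, 84.9 and 81.4 CPM at 24 h and at 149, 152 and 152 CPM at 48 h. All 3 later libraries lay above all 3 earlier ones, and the log2 fold change was 0.87 ± 0.06 (adjusted p = 8.88e-15). Aifm2, which encodes FSP1 and regenerates ubiquinol, went from 1.89, 1.94 and 1.95 CPM to 6.56, 5.97 and 5.90 CPM (1.67 ± 0.16), and Gch1, the first enzyme of tetrahydrobiopterin synthesis, rose by 0.95 ± 0.08. Gclc, which starts glutathione synthesis, fell by 0.77 ± 0.06. Slc7a11, the cystine transporter gene, stood at 1.12, 1.24 and 1.11 CPM and then at 0.736, 0.764 and 0.804 CPM, and its change of -0.59 ± 0.28 did not pass (adjusted p = 0.0628).

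Genes of cytotoxic granules and several cytokines changed in both directions. Of 23 granule genes 22 were tested, 13 rose and 6 fell (median 0.67). Gzmb, for granzyme B, which cuts caspases in target cells, stood at 208, 214 and 212 CPM at 24 h and at 1952, 1862 and 1887 CPM at 48 h. It had the largest rise in CPM of all named genes, and its log2 fold change was 3.17 ± 0.06 (adjusted p = 2.6e-30). Prf1, for the pore protein perforin, rose from 35.7, 34.1 and 38.6 CPM to 88.0, 77.6 and 80.7 CPM (1.19 ± 0.07), and Gzmc rose by 3.31 ± 0.14. Gzmd and Gzme had 0 counts at 24 h and stayed below 1 CPM at 48 h, which makes them at least 23.8-fold and at least 18.8-fold higher against a floor of 3 counts over the 24 h group. Granzyme genes are similar in sequence and can share reads.

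Of 33 cytokine genes 16 rose and 14 fell (median 0.18). Il24, a cytokine of the interleukin 10 family, stood at 0.673, 1.04 and 0.571 CPM at 24 h and at 111, 106 and 112 CPM at 48 h (7.18 ± 0.13, adjusted p = 4.37e-27). Ifng, for interferon gamma, went from 187, 198 and 160 CPM to 484, 465 and 468 CPM (1.38 ± 0.07, adjusted p = 2.39e-14). Both were higher in every 48 h library, while the next 3 cytokines were lower in every one. Il2, the T cell growth factor gene, went from 55.2, 60.5 and 47.7 CPM to 15.5, 17.6 and 14.8 CPM (-1.77 ± 0.08, adjusted p = 3.44e-18). Tnf went from 251, 248 and 246 CPM to 94.8, 98.9 and 100 CPM (-1.34 ± 0.06), and the lymphotoxin gene Ltb went from 340, 327 and 369 CPM to 87.4, 98.6 and 107 CPM (-1.82 ± 0.06). Of 17 chemokine genes 2 rose and 8 fell (median -0.47). Ccl1, a ligand of the receptor Ccr8, fell from 86.6, 74.9 and 76.7 CPM to 6.32, 9.08 and 9.40 CPM, the widest fall of any gene named by rule (-3.27 ± 0.17, adjusted p = 9.66e-09). Xcl1, which attracts cross-presenting dendritic cells, fell by 1.45 ± 0.07, and the Cxcr3 ligand genes Cxcl10 and Cxcl9 fell by 1.37 ± 0.09 and 1.36 ± 0.08.

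**Figure D3:**
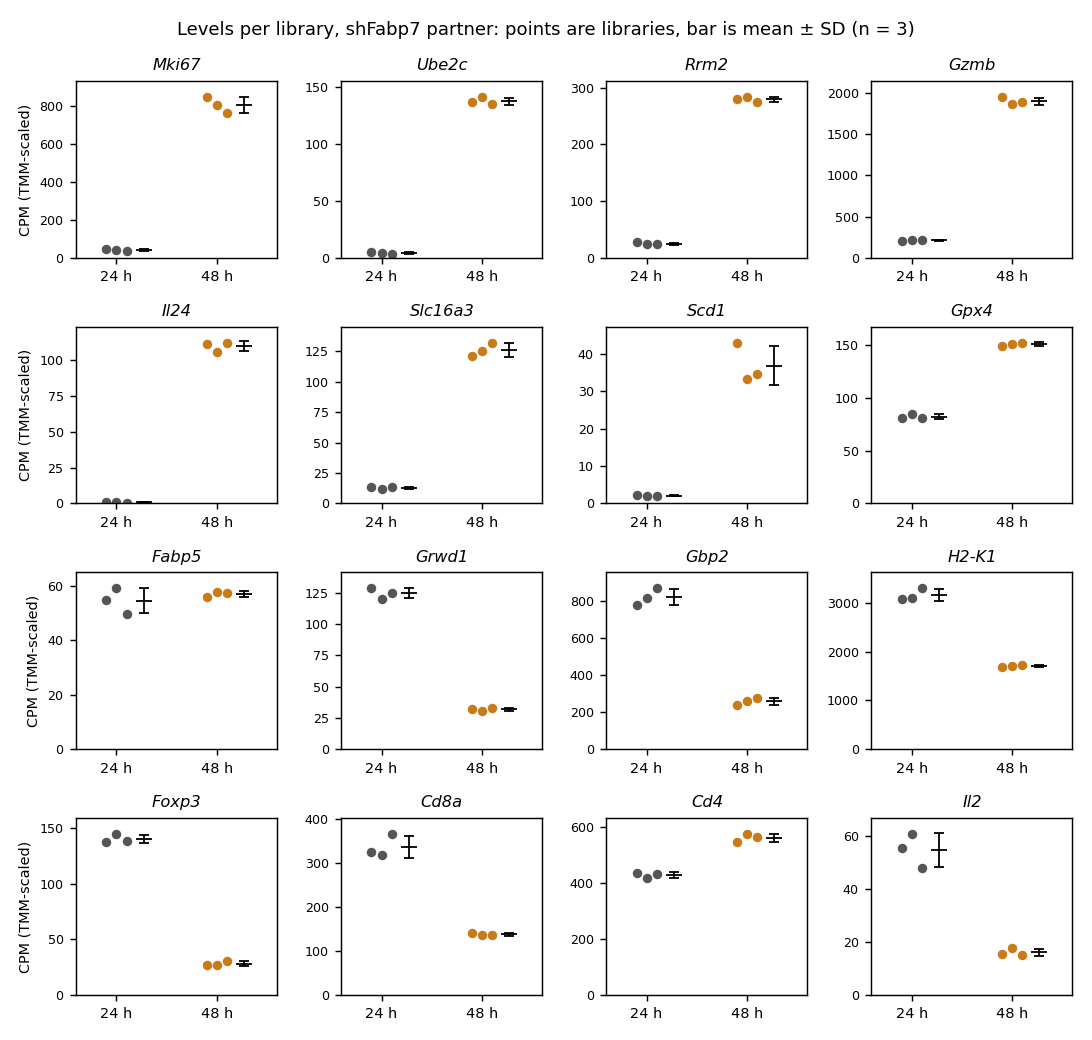
CPM (TMM-scaled) of 16 genes in each library of the shFabp7 partner at 24 h (grey points) and 48 h (orange points), with the mean and SD of each group (n = 3) as the bar; each panel has its own axis starting at 0. Only Fabp5 overlaps between the times; Gzmb reaches 1952 CPM at 48 h, and Foxp3 drops to between 26.7 and 30.8 CPM.

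Receptor genes for cytokines were divided, with 10 of 25 higher and 12 lower. Il12rb2, the signalling chain of the interleukin 12 receptor found on type 1 helper and cytotoxic cells, stood at 32.2, 30.2 and 32.2 CPM at 24 h and at 274, 255 and 266 CPM at 48 h. No 48 h library was below 255 CPM, and the log2 fold change was 3.07 ± 0.06 (adjusted p = 2.6e-30). Il10ra (1.18 ± 0.05) and Il7r (0.87 ± 0.07) rose, and Il15ra fell by 0.76 ± 0.06. Of 26 transcription factor genes of effector cells 12 rose and 9 fell: Batf3 (2.54 ± 0.16), Nfil3 (1.46 ± 0.06), Bhlhe40 (1.44 ± 0.06) and Gata3, the type 2 helper factor gene (0.84 ± 0.05), rose. Tcf7, which maintains naive and memory cells, fell by 0.39 ± 0.05.

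Genes that interferons induce were lower at 48 h. All 16 tested members of 17 interferon-induced GTPase genes fell, 10 by at least 2-fold, with a median of -1.09. These proteins attack vacuoles that hold microbes. Gbp2 stood at 777, 816 and 865 CPM at 24 h and at 237, 258 and 276 CPM at 48 h. No library of one time came near the other, and the gene fell by 1.67 ± 0.06 (adjusted p = 2.79e-22). Ifi47 (-1.8 ± 0.06), Iigp1 (-1.42 ± 0.06) and Irgm1 (-1.30 ± 0.05) fell as well, and members of these families share sequence. Of 32 genes of the type I interferon response 2 rose and 24 fell (median -0.75). Ifit3, an antiviral protein gene, went from 71.9, 72.0 and 103 CPM to 13, 14.9 and 16.9 CPM (-2.47 ± 0.16, adjusted p = 1.45e-07). Rtp4 (-1.93 ± 0.09) and Xaf1 (-1.62 ± 0.09) fell too. Socs1, a feedback inhibitor of cytokine signalling, fell by 0.80 ± 0.06.

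Genes for presentation on MHC class I fell in the same libraries. Of 19 genes 1 rose and 17 fell (median -0.68). H2-K1, a classical heavy chain, stood at 3075, 3101 and 3296 CPM at 24 h and at 1681, 1700 and 1737 CPM at 48 h. The drop took each later library well below each earlier one (-0.89 ± 0.05, adjusted p = 1.16e-16). B2m, the light chain, fell by 0.82 ± 0.06, the peptide transporter gene Tap2 by 0.91 ± 0.06, and Tapbp, which loads peptides, by 1.41 ± 0.06. MHC class II genes did not move as a group, with 4 of 10 higher and 5 lower: H2-Oa (2.36 ± 0.10) and H2-Ob (1.29 ± 0.10) rose, and the class II activator gene Ciita fell by 1.03 ± 0.16 at a few CPM.

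The balance of T cell subset genes shifted. Cd8a, the coreceptor of cytotoxic T cells, stood at 326, 318 and 366 CPM at 24 h and at 142, 135 and 136 CPM at 48 h (-1.29 ± 0.05, adjusted p = 2.07e-20). Cd4, the coreceptor of helper T cells, stood at 435, 417 and 432 CPM and then at 546, 573 and 565 CPM (0.39 ± 0.05, adjusted p = 1.09e-08). The ratio of Cd8a to Cd4 was 0.786 ± 0.0526 at 24 h and 0.245 ± 0.0123 at 48 h (SD, n = 3, two-sided exact permutation p = 0.1). Cd8b1, the partner chain of Cd8a, fell by 0.86 ± 0.05. In bulk RNA, fewer cells of a type and less RNA of a gene per cell cannot be told apart, and this holds for each subset or cell type gene given here.

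The list of regulatory T cell genes was divided, with 5 of 14 higher and 6 lower. Foxp3, the factor that defines these cells, stood at 138, 145 and 139 CPM at 24 h and at 26.7, 27 and 30.8 CPM at 48 h. The level at 48 h was lower in every library, by 2.32 ± 0.11 on the log2 scale (adjusted p = 4.95e-11). Lrrc32, which displays latent TGF-beta (-1.94 ± 0.08), the factor gene Ikzf2 (-1.51 ± 0.06) and Gpr83 (-1.16 ± 0.07) fell, while Ebi3, a cytokine subunit, rose (1.39 ± 0.10) and Ctla4 was level, with -0.03 ± 0.06 (adjusted p = 0.643).

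Of 28 genes of T cell receptor signalling 6 rose and 14 fell. The kinase gene Prkcq went from 305, 298 and 326 CPM to 85.6, 89.1 and 94.7 CPM (-1.79 ± 0.05, adjusted p = 1.39e-24), and Lck, the first kinase of the cascade, fell by 0.65 ± 0.05. Themis, an adaptor of the same pathway, went up (1.61 ± 0.06). Among 20 costimulatory and activation genes 9 rose and 10 fell. The early activation marker gene Cd69 went from 262, 289 and 276 CPM to 90.7, 87.8 and 90.4 CPM (-1.62 ± 0.06, adjusted p = 8.77e-23), and Cd27 fell by 1.56 ± 0.05. The 24 h and 48 h libraries did not overlap in either marker. Of 23 immediate early genes 11 rose and 12 fell: Egr3 (-1.17 ± 0.07) and the phosphatase gene Dusp2 (-1.06 ± 0.06) fell, and Ier3 (2.06 ± 0.08), Fosl2 (1.08 ± 0.06) and Fos (0.95 ± 0.08) rose. Of 16 inhibitory receptor genes 8 rose and 5 fell. Lag3 went from 219, 208 and 205 CPM to 437, 425 and 406 CPM (1.00 ± 0.05), Havcr2, for TIM-3, rose at a lower level (1.63 ± 0.11), Vsir, for VISTA, fell by 1.36 ± 0.05, and Pdcd1, for PD-1, fell by 0.52 ± 0.06.

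Genes of naive and memory cells and of homing did not move as groups. Of 24 naive and memory genes 8 rose and 10 fell, with Klf2, which keeps naive cells in circulation, down by 1.31 ± 0.07, Ly6c2 down by 1.32 ± 0.07 and Dapl1 up by 2.65 ± 0.13. Of 24 homing receptor genes 7 rose and 9 fell. Cxcr3, the receptor of type 1 cells for Cxcl9 and Cxcl10, went from 31.8, 31.0 and 33.8 CPM to 11.3, 10.9 and 11.2 CPM (-1.53 ± 0.07, adjusted p = 6.5e-19), so receptor and ligands were lower together. Cxcr5, the follicular homing receptor, went up (1.52 ± 0.08).

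Target genes of p53, which respond to DNA damage and other stress, leaned upward. Of 22 genes 16 rose and 4 fell (median 0.49). Cdkn1a, for the cell cycle inhibitor p21, stood at 118, 136 and 113 CPM at 24 h and at 437, 460 and 464 CPM at 48 h (1.89 ± 0.08, adjusted p = 2.73e-14). The inhibitor was thus higher in the same 3 libraries in which mitosis genes were higher. Of 25 BCL2 family and caspase genes 12 rose and 7 fell (median 0.20). The pro-death gene Pmaip1 (1.75 ± 0.10) and the pro-survival gene Bcl2l2 (1.88 ± 0.11) rose. The labels give no viability of the cultures.

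The remaining lists were mixed. Of 29 antioxidant and pentose phosphate genes 9 rose and 13 fell, of 29 citric acid cycle genes 10 rose and 11 fell, of 29 nuclear genes of the respiratory chain 2 rose and 15 fell, and of 12 mitochondrially encoded ones 2 rose and 5 fell. Of 16 genes listed as amino acid transporters 6 rose and 8 fell (median -0.46). Slc7a5, the large neutral amino acid transporter gene, fell by 0.89 ± 0.14, and the list member Slc43a3 rose by 2.54 ± 0.07. Whether Slc43a3 itself carries amino acids was not checked. Of 24 genes for folding in the endoplasmic reticulum 5 rose and 12 fell, with the chaperone gene Hspa5 down by 0.70 ± 0.05. Of 24 Myc network and polyamine genes 8 rose and 9 fell, of 23 nucleotide synthesis genes 4 rose and 12 fell, of 21 serine and stress response genes 5 rose and 8 fell, of 26 lysosome and autophagy genes 12 rose and 11 fell, and of 16 clock genes 5 rose and 8 fell. The medians of most of these divided lists turn sign with the scaling of the libraries. JAK-STAT genes (9 of 21 higher, 10 lower), NF-kappaB genes (6 of 17 higher, 7 lower) and NK-type receptor genes (4 of 14 higher, 3 lower) were as divided.

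A small set of genes was nearly silent at 24 h. In 14 genes the 3 libraries at 24 h held at most 3 counts in all while the 48 h group reached at least 1 CPM, and 0 genes did the reverse. Slc2a4, for the insulin-regulated glucose transporter, had 0 counts at 24 h and 2.00, 2.23 and 1.69 CPM at 48 h, at least 62.0-fold higher against a floor of 3 counts over the group. The amino acid transporter gene Slc38a3 (at least 50.7-fold) and Prph, for the filament protein peripherin (at least 33.0-fold), were also at 0. Fbxo2, which recognises glycoproteins for degradation, had 1 count at 24 h and 396 at 48 h, a ratio of 329 with a counting interval of 58.7 to 13025 (95%). Tph1, for tryptophan hydroxylase, had 2 counts and then 393, a ratio of 163 (44.9 to 1353). Even at 48 h these genes reached no more than 3.62 CPM. Among abundant genes, Tgm2, for transglutaminase 2, which crosslinks proteins, went from 23.6, 22.9 and 23.8 CPM to 675, 740 and 741 CPM (4.94 ± 0.08, adjusted p = 2.81e-29). Besides Ccl1, the widest falls at or above 1 CPM included Kdr, for a VEGF receptor (-2.64 ± 0.27), Apol7c (-2.42 ± 0.10) and Trmt61a, a tRNA methyltransferase gene (-2.18 ± 0.07).

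Apart from NK cell and plasma cell markers and antibody transcripts, markers of cells other than T cells were present at low levels. Antibody transcripts, given in the next paragraph, were abundant, with Ighm at up to 880 CPM at 24 h. The marker lists did not move one way. Summed over each list, B cell markers went from 52.0 to 61.0 CPM at 24 h to 72.8 to 73.4 CPM at 48 h (15 of 16 tested, 8 rose and 3 fell), and dendritic cell markers went from 75.9 to 86.6 CPM to 57.2 to 64.1 CPM (6 of 11 tested, 4 rose and 2 fell). Monocyte and macrophage markers went from 23.2 to 24.9 CPM to 19.4 to 21.7 CPM (7 of 15 tested, 2 rose and 3 fell), and neutrophil markers from 7.28 to 9.26 CPM to 3.75 to 5.54 CPM (7 of 13 tested, 1 rose and 2 fell). Red cell and platelet markers went from 9.59 to 10.7 CPM to 13.4 to 15.6 CPM (5 of 11 tested, 3 rose and 0 fell), and epithelial, stromal and melanocyte markers from 97.4 to 101 CPM to 83.2 to 88.7 CPM (10 of 22 tested, 5 rose and 4 fell). The NK cell markers (8 of 9 tested) summed to 987 to 1079 CPM and then to 1160 to 1217 CPM (2 rose and 1 fell), mostly through Il2rb and Prf1, which activated T cells express. Some members had 0 counts in all 6 libraries: 1 of 15 monocyte and macrophage markers (Lyz1) and 1 of 13 neutrophil markers (Retnlg). So did 2 of 11 dendritic cell markers (Cd209a and Clec4a4). Of the 22 epithelial, stromal and melanocyte markers it was 4 (Krt14, Krt19, Col3a1 and Sox10). All other members of these lists had counts. The part of these cells in the changes above was not tested.

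Antibody transcripts fell while B cell markers did not fall as a group. Ighm, the heavy chain of IgM, stood at 836, 706 and 880 CPM at 24 h and at 258, 285 and 361 CPM at 48 h (-1.42 ± 0.15, adjusted p = 1.6e-05). Igkc, the kappa light chain, stood at 385, 331 and 408 CPM and then at 116, 135 and 167 CPM (-1.43 ± 0.16), and Jchain, which joins secreted antibody, at 59.6, 56.5 and 65.7 CPM and then at 19.1, 19.9 and 27.9 CPM (-1.45 ± 0.19). All 3 dropped by a like amount in each 48 h library. Immunoglobulin and receptor segments were grouped after values were seen: of 56 tested heavy chain V segments 0 rose and 44 fell (median -1.46), and of 74 kappa V segments 0 rose and 58 fell (median -1.45). The plasma cell markers (6 of 7 tested) gave 2 rises and 2 falls, with Sdc1, a plasma cell surface gene, higher (2.40 ± 0.13), and their sum went from 174 to 191 CPM to 139 to 146 CPM. Of T cell receptor segments, 14 of 21 beta V segments were lower and 0 higher (median -0.66), and 22 of 53 alpha V segments were lower and 1 higher (median -0.52). The few tested delta V segments (3 of 4 lower, median -1.35) and gamma V segments (2 of 3 lower, median -0.94) gave wider median falls. Constant segments of the T cell receptor summed to 958 to 1016 CPM at 24 h and to 587 to 690 CPM at 48 h, and those of immunoglobulins to 1187 to 1475 CPM and then to 432 to 609 CPM.

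With the control partner the same step in time was taken by different libraries, fitted in the same model. There 11478 genes passed (67.7%). Genes higher at 48 h with both partners numbered 5229, or 85.9% of those higher with shFabp7 and 86.2% of those higher with control. Genes lower with both numbered 4517, or 88.2% and 83.4%. Only 35 genes passed in opposite directions. The difference between the time effects passed for 949 genes (5.6%): it was above 0 with the shFabp7 partner for 750 (4.43%) and below 0 for 199 (1.17%). Under upper-quartile scaling the split was 341 and 356, and with a required fold above 1.2 it was 12 and 1, so neither the lean nor the number held across settings.

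**Figure D4:**
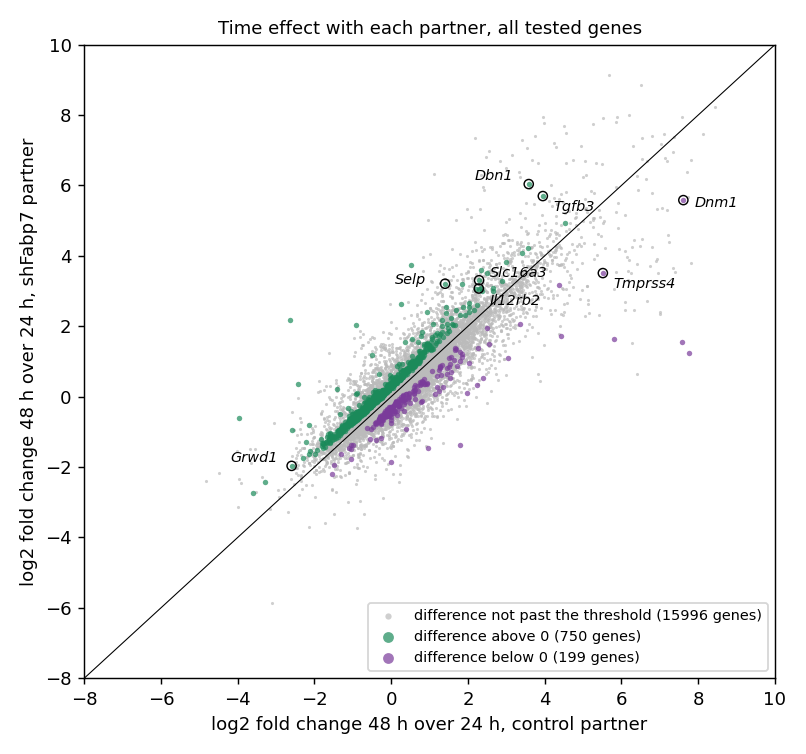
Each point is a tested gene, placed by its log2 fold change from 24 to 48 h with the control partner (horizontal) and with the shFabp7 partner (vertical); green points had a difference above 0 and purple points below 0 at an adjusted p of 0.05, grey points did not pass, and the line marks equal change. Most genes lie along the line, with 750 green and 199 purple points to either side.

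The difference was then read by gene group. The counts stand beside 4.43% of all genes above 0 and 1.17% below. In ribosome assembly it was above 0 for 24 of 40 genes and below for 0, which is a smaller fall with the shFabp7 partner: Grwd1 fell by 1.97 with shFabp7 and by 2.60 with control on the log2 scale (difference 0.63, adjusted p = 1.36e-04). The number for this list was 13 to 23 under other scalings and 10 to 29 when a library was left out. In ribosomal proteins it was below 0 for 36 of 80 genes, with a range of 42 to 54 under other scalings and of 11 to 57 on leaving out a library, so these fell further with the shFabp7 partner, as Rpl38 did (difference -0.38, adjusted p = 0.00609). In glycolysis it was above 0 for 14 of 21 genes and below for 0 (10 to 15 under other scalings, 8 to 16 on leaving out a library). The log2 fold change of Slc16a3 was 3.31 with shFabp7 and 2.29 with control (difference 1.02, adjusted p = 2.28e-06), and that of Hk2 was 1.44 and 1.02 (difference 0.42, adjusted p = 0.00295). In endoplasmic reticulum folding it was above 0 for 13 of 24 genes, with Hspa5 one of them (difference 0.39, adjusted p = 0.0011).

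Single genes with the widest differences were mostly low in level. Selp, for P-selectin, stood at 3.40, 3.29 and 4.36 CPM at 24 h and at 34.6, 32.2 and 35.6 CPM at 48 h with the shFabp7 partner, a log2 fold change of 3.21 against 1.40 with control (difference 1.8, adjusted p = 4.67e-07). Inhba, a TGF-beta family gene, rose further with shFabp7 as well (difference 1.21, adjusted p = 5.68e-04). The calls for Tgfb3 (difference 1.75) and the growth factor gene Pdgfa (1.37) did not pass on leaving out some libraries, and held for 4 and 9 of the 12 left out in turn. Dnm1, for dynamin 1, rose less with shFabp7 than with control (difference -2.03, adjusted p = 0.0378), a call that held for 4 of the 12 libraries left out in turn. Among more abundant genes, Il12rb2 rose by 3.07 with shFabp7 and 2.28 with control (difference 0.79, adjusted p = 6.81e-08), and Tgm2 by 4.94 and 4.52 (difference 0.42, adjusted p = 0.00996, held for 8 of 12). Mki67, Gzmb, Fabp5 and Gpx4 gave differences of -0.01, 0.19, 0.19 and 0.03 that did not pass (adjusted p from 0.152 to 0.982).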

How the data were processed

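RNA sequencing counts of 6 T cell libraries with the shFabp7 partner were analysed within the fit of all 12. The authors deposited whole-number read counts per gene symbol, not normalized and not pooled, for 53762 symbols. Tools in the submitters' processing notes are CASAVA 1.8.2, TopHat2 2.0.13 and HTSeq 0.6.1p1, with build GRCm39. Neither strand setting nor annotation release is given in the sources used here. Reads of overlapping, antisense or near-identical genes therefore cannot be told apart.

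Genes passed edgeR's filterByExpr (minimum count 10, minimum total 15), which left 16945, and libraries were scaled by TMM. The test was edgeR 4.0.16 quasi-likelihood in R 4.3.3 with robust dispersions, 1 coefficient per group and Benjamini-Hochberg adjustment at 0.05 for each comparison. The difference of the time effects was an interaction contrast. In data simulated for the time comparison it recovered 31 of 50 genes changed 1.25-fold, 43 at 1.5-fold, 49 at 2-fold and 50 at 4-fold, with 5 unchanged genes among 178 calls. Only these few genes were changed there, all at 1 CPM or more and evenly in both directions. In the real comparison 66.1% of genes passed, many at lower levels, so these rates need not hold for it.

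The members and the 57 gene lists were chosen with earlier results of these data known. Genes were named by rule: the 12 largest changes per direction, the 6 largest per direction in CPM, up to 5 changed members of each list, the 6 largest differences per direction, the Fabp genes, Cd3e, Cd4 and Cd8a. A few genes selected this way are not reported. Named after their values were seen were Gpx4, Slc7a11, Ifng, Il2, Tnf, Ccnb1, Mcm6, Npm1, Ncl, B2m, Igkc, Ighm, Myc, Tcf7, Gata3, Cd3d, Cd247, Cd2, Thy1, Pdcd1, Ctla4, Cdk1 and the promoter of Cdc6. Promoter windows were RefSeq sequences of GRCm38.p6, matched by symbol. Alternatives were DESeq2 1.42.0, other scalings, filters and designs, and each library left out in turn.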

Additional observations from a re-analysis of the deposited data

Results flagged for a closer look

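Of the 157 genes looked up for the report, 35 had a time effect that differed between the partners by the interaction test of edgeR's quasi-likelihood fit (adjusted p below 0.05). In 27 of them the log2 fold change from 24 to 48 h was higher with the shFabp7 partner and in 8 it was lower. The calls of 15 held under every scaling, every other fit except the required fold and every left-out library, and 6 of the 35 passed with a required fold above 1.2. Over all 16945 genes the same test passed for 949 (5.6%). The 35 of 157 cannot be weighed against that share, because the 157 genes were not picked independently of this test. Some were named for having the largest differences, and others after their values were seen. Differences below are log2 values, shFabp7 minus control, and no cause was tested.

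Among the 15 stable calls, genes that rose further with the shFabp7 partner were Selp (1.8), Inhba (1.21), Slc16a3 (1.02), Il12rb2 (0.79), Bnip3 (0.62), Egln3 (0.53), Hk2 (0.42) and Slc2a3 (0.37). Genes that fell less with it were Apol7c (0.87), Grwd1 (0.63), Srm (0.56) and Hspa5 (0.39). Genes that fell further were Vsir (-0.32), Rps27 (-0.34) and Rpl38 (-0.38).

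The other 20 calls did not pass under at least one setting. Above 0 were Tgfb3 (1.75), Pdgfa (1.37), Ier3 (0.48), Polr1b (0.46), Tgm2 (0.42), Prf1 (0.40), Acadl (0.35), Il2rb (0.33), Ppan (0.32), Socs1 (0.31), Nfil3 (0.31), Thy1 (0.31), Irgm1 (0.30), Ncl (0.29) and Rrs1 (0.28). Below 0 were Cd69 (-0.30), Xcl1 (-0.34), Cxcl9 (-0.36), Lrrc32 (-0.45) and Dnm1 (-2.03). Il2rb had opposite time effects, 0.17 with the shFabp7 partner and -0.16 with the control partner.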

How the results depend on the processing

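The count of genes changed in time, 11207, was 8142 to 11595 over the other settings, and no call turned direction. A required fold above 1.2 left 3319 lower genes. Leaving out 1 library gave 10612 (without shFabp7 48 h replicate 1) to 11466 genes, 5614 to 6213 higher and 4847 to 5477 lower. The higher share of calls, 54.3%, was 66.4% with library totals and 48.6% when TMM factors used totals of all symbols. The difference between partners was less stable. Its 949 calls were 319 (without shFabp7 24 h replicate 2) to 1680 (without control 48 h replicate 1), with 183 to 1332 above 0 and 93 to 348 below. DESeq2 gave 302 below 0. Above and below 0 were 341 and 356 with upper-quartile scaling, 483 and 341 without a filter, 291 and 371 with TMM on totals of all symbols, and 12 and 1 (13 in all) with a required fold above 1.2, while library totals gave 446 above. The cause was not tested. With the replicate number as a block, 11120 genes changed in time. Same-numbered libraries of the 2 times deviated with correlations of -0.03, -0.04 and 0.06 over 11407 genes, so the numbers were not taken as pairs. Genes below about 1 CPM rest on few counts, and their fold changes depend on the filter.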
